A study of Mus musculus with 17 samples.

Results

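The BCL2 family decides whether the outer mitochondrial membrane of a cell stays intact, and 10 of its genes were followed here in splenic conventional dendritic cells (cDCs) that had met dying tumor cells. They were chosen by name: the pro-survival genes Bcl2, Bcl2l1 (BCL-XL), Mcl1 and Bcl2a1b (A1), the pore-forming effectors Bax and Bak1, and the BH3-only genes Bcl2l11 (BIM), Bbc3 (PUMA), Pmaip1 (NOXA) and Bid. These are 10 of 31091 genes in the count table, and all 10 passed the filter on low counts in every fit.

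Polyadenylated RNA was sequenced in 17 samples: cDC1s with WT, BimS or RIPK3 medium (3 samples each), cDC2s with WT or BimS medium (3 each) and cDC2s with RIPK3 medium (2). The cells came from spleens of 8-week-old female C57BL/6JRj mice that carried a B16-FLT3L tumor to expand cDCs, with spleens of at least 2 mice pooled. CD11c+ cells were kept for 6 h, in the presence of GM-CSF at 2 ng/mL, with medium of TC-1 cells, a mouse lung epithelial tumor line, and were then sorted into cDC1s and cDC2s. In every group, WT included, the TC-1 cells had been given the inducer cumate for 24 h. WT medium came from live parental cells. BimS medium came from a clonal line (TC-1-iBimS) in which cumate turns on the short form of BIM and apoptosis. RIPK3 medium came from a clonal line (TC-1-iRIPK3) in which cumate turns on an oligomerizing RIPK3 and necroptosis. The inducible lines are clonal, and how many clones of each were used is not stated, so the mode of death and the clone cannot be told apart.

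Between 16095159 and 21645289 reads were counted in a sample. The 8 cDC1 markers summed to between 1409 and 1736 CPM in cDC1 samples and to between 99.0 and 132 CPM in cDC2 samples, and the 6 cDC2 markers to between 2.11 and 4.02 CPM and between 285 and 373 CPM. Single markers moved within these sums. In cDC1s 5 of 8 cDC1 markers were called with BimS medium (2 higher, 3 lower) and 6 with RIPK3 medium (3 higher, 3 lower), with Irf8 lower by 0.75 and 0.82, and in cDC2s 2 of 6 cDC2 markers (1 higher, 1 lower) and 4 (1 higher, 3 lower), with Irf4 lower by 1.16 and 1.52. The 6 T and NK cell markers summed to 1.23 CPM at most, and Cd3g was called lower in cDC2s with BimS medium, on 1 to 12 reads per cDC2 sample. Of the 5 plasmacytoid markers Siglech stayed at or under 0.688 CPM, while the sum, mostly through Tcf4 and Bst2, was 54.3 to 66.01 CPM in cDC1s and 173 to 217 CPM in cDC2s. Tcf4 fell in cDC1s by 0.23 with each of the media (adjusted p = 0.0485 and 0.0487) and Bst2 in cDC2s by 0.55 with RIPK3 medium (adjusted p = 0.0241). The 6 macrophage and monocyte markers, mostly Cd14, summed in cDC1s to 122 to 178 CPM with WT, 85.0 to 127 CPM with BimS and 122 to 194 CPM with RIPK3 medium, and none of them was called there against WT. The 14 genes of a TC-1 list (epithelial and stromal genes) that the table holds summed to between 6.38 and 7.17 CPM in cDC1s with WT medium and to between 6.57 and 11.0 CPM with the others. In cDC2s that sum went from 80.3 to 93.5 CPM with WT medium to between 154 and 199 CPM with the others, mostly through Thbs1, which lay between 46.8 and 52.3 CPM with WT medium and between 132 and 162 CPM with the others, while Epcam stayed at or under 1.44 CPM in all 17 samples. Thbs1 was the only TC-1 gene of 10 tested that was called in cDC2s with either of the media against WT. In cDC1s the only one called, of 12 tested, was Cald1, higher with RIPK3 medium (1.80, SE 0.54, adjusted p = 0.0163). Of the macrophage and monocyte markers only Cd14 was called in cDC2s, higher by 0.46 with BimS (SE 0.12, adjusted p = 0.0233) and by 0.87 with RIPK3 medium (SE 0.13, adjusted p = 0.000227), and their sum there was 49.7 to 64.6 CPM with WT medium and 59.4 to 90.7 CPM with the others. The part of tumor cell RNA and of other cell types in the results below was not tested. In bulk RNA, fewer cells that express a gene and less RNA per cell cannot be told apart.

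BAX and BAK form the pores through which mitochondria release cytochrome c, which activates caspases through APAF1. Pro-survival members hold BAX, BAK and the BH3-only proteins in a groove on their surface, and BH3-only proteins start the process by binding that groove. BIM is a main brake on the life span of dendritic cells and other blood cells, and MCL-1, A1 and NOXA are proteins with fast turnover.

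What the family shares is the BH3 motif, and its core is shown because it is what BimS in the tumor clone, and BIM, PUMA and BID in the cDCs, use for binding. The 27 coding bases of the core were read from GRCm39, in the canonical transcript of each gene. Capitals mark the leucine codon at the start and the pair of codons, for glycine or alanine and for aspartate, in the middle.
Bcl2: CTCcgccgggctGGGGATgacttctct
Bcl2l1: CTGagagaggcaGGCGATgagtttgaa
Mcl1: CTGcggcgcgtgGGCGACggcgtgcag
Bax: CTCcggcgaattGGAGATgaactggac
Bak1: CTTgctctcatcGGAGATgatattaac
Bcl2l11: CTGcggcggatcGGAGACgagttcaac
Bbc3: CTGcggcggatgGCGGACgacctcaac
Bid: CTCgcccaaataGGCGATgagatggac
The Bcl2l11 core lies at chr2:127989070-127989096 on the plus strand, in exon 3 of 4, and is read in 6 of the 7 coding transcripts of the gene, whose proteins run from 91 to 199 residues. Bbc3 alone of these 8 carries the alanine codon, at chr7:16047698-16047724 on the plus strand. The Bcl2 core lies at chr1:106640305-106640331 and that of Bax at chr7:45115421-45115447, both on the minus strand. Bcl2a1b holds no stretch of this spelling, and Pmaip1 holds 2, which are not shown here.

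With medium of dying cells the change in cDC1s was a joint one of survival and death genes. Among the survival genes, Mcl1 and Bcl2a1b fell with both media and Bcl2l1 with BimS medium, whereas Bcl2 rose with RIPK3 medium. Among the death genes, Bax rose and Bbc3 and Pmaip1 fell with both media, and Bcl2l11 and Bid fell with RIPK3 medium. By edgeR's quasi-likelihood test, with Benjamini-Hochberg adjustment over all genes and an adjusted p under 0.05, 6 of the 10 genes were called with BimS medium against WT (1 higher, 5 lower), beside 13.2% of all genes tested. With RIPK3 medium against WT 8 were called (2 higher, 6 lower), beside 16.5% of all genes, and the fits without WT replicate 1 or without RIPK3 replicate 2 called 5. The genes that rose made up 7.31% and 8.34% of all genes and those that fell 5.89% and 8.19%. Most of the 10 are well expressed, and of genes with a mean log2 CPM of 3 or more 25.8% and 31.7% were called. The median log2 fold change of the 10 genes was -0.13 and -0.18, and that over all genes 0.0017 and -0.0056. The 2 comparisons share the WT samples.

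In cDC2s, Bax rose and Bbc3 fell with each of the media, and no other of the 10 genes was called. That made 2 of 10 with BimS medium, beside 7.01% of all genes (3.80% higher, 3.21% lower), and 2 of 10 with RIPK3 medium, beside 7.21% (3.93% higher, 3.28% lower). Among genes with a mean log2 CPM of 3 or more the shares were 13.2% and 13.6%. Samples with the same replicate number deviated together within a cell type, and with the replicate number as a block 7 genes were called with BimS medium (21.3% of all genes) and 4 with RIPK3 medium (21.4%). Without the block, leaving out 1 sample gave 1 to 2 genes with BimS medium, where 7 of 8 fits gave 1, and 0 to 3 with RIPK3 medium, with 0 in the fits without WT replicate 2, RIPK3 replicate 1 or RIPK3 replicate 2. The additional calls are given with each gene.

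**Figure D1:**
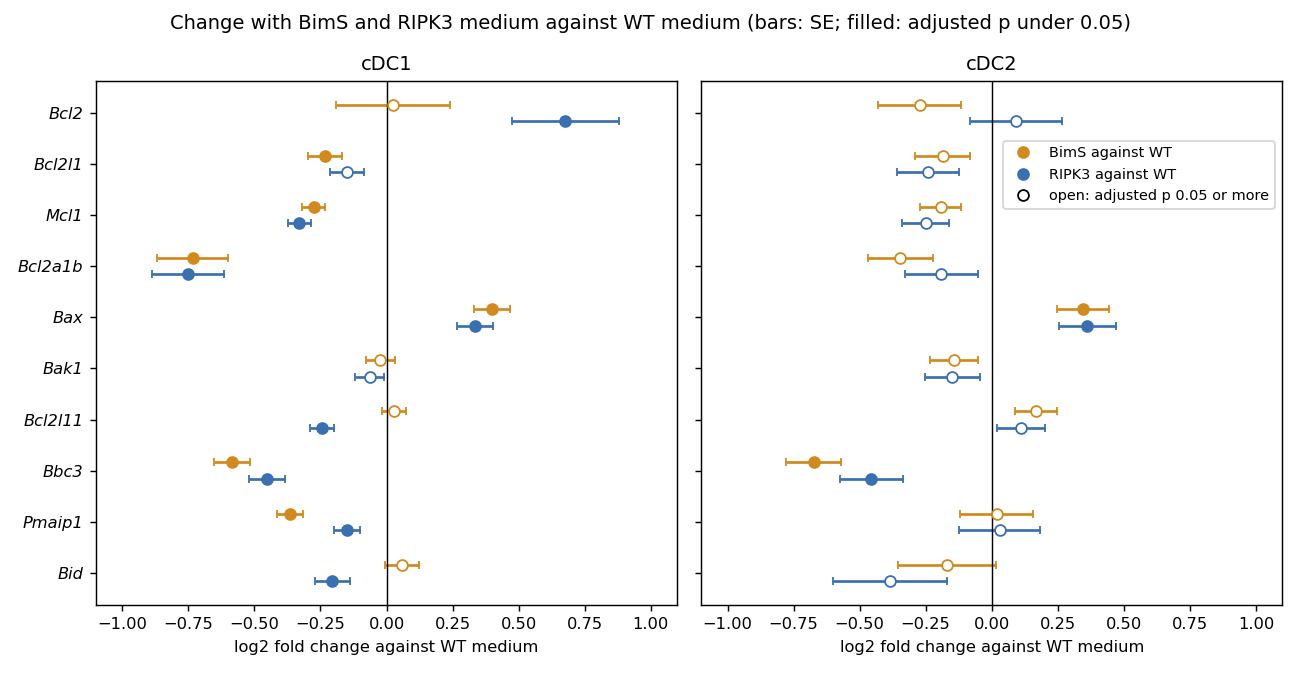
Log2 fold change of the 10 genes with BimS (orange) and RIPK3 (blue) medium against WT medium in cDC1s (left) and cDC2s (right), with the SE derived from the edgeR F statistic as bars and filled points for an adjusted p under 0.05. Bax lies to the right of 0 and Bbc3 to the left in all 4 comparisons, and Bcl2 is to the right by 0.68 in cDC1s with RIPK3 medium.

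Mcl1 (ENSMUSG00000038612, chr3:95566026-95570487, plus strand) encodes a protein that holds BAK and BIM in check. Of the 4 pro-survival genes, with A1 counted by Bcl2a1b alone of its copies, Mcl1 had the highest level per exon length in each group. Levels are given in CPM, the reads of a gene per 1 M reads after TMM scaling. In cDC1s it stood at 1001, 994 and 972 CPM with WT medium, at 827, 830 and 794 CPM with BimS medium and at 806, 791 and 763 CPM with RIPK3 medium. Every WT sample lay above every other cDC1 sample, and the BimS and RIPK3 samples overlapped. Mcl1 fell by 0.28 on the log2 scale with BimS medium (SE 0.044, adjusted p = 1.04e-05) and by 0.33 with RIPK3 medium (SE 0.044, adjusted p = 2.81e-07), which is 17.4% and 20.5% less in the edgeR fit. In cDC2s the levels were 1234, 1157 and 1160 CPM with WT medium, 1096, 1013 and 1000 CPM with BimS medium and 1071 and 933 CPM with RIPK3 medium. Here too every WT sample was above every other sample. The fold change was -0.19 (SE 0.078, adjusted p = 0.173) with BimS and -0.25 (SE 0.088, adjusted p = 0.102) with RIPK3 medium in the edgeR fit. With the replicate block the adjusted p was 5.16e-06 and 1.58e-08, and limma on unnormalised log2 counts also called the fall with RIPK3 medium (-0.43, adjusted p = 0.0368).

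Bcl2a1b (ENSMUSG00000089929, chr9:89081262-89089889, plus strand) is a copy of the A1 gene, which NF-kB induces in activated blood cells. In cDC1s its level was 9.71, 7.94 and 8.18 CPM with WT medium, 4.84, 5.70 and 4.95 CPM with BimS medium and 4.45, 5.02 and 5.93 CPM with RIPK3 medium. The WT samples did not overlap with the others. These were the largest falls among the 10 genes in cDC1s, by 0.73 with BimS medium (SE 0.13, adjusted p = 0.000104) and by 0.75 with RIPK3 medium (SE 0.14, adjusted p = 6.57e-05). They rest on between 88 and 195 reads per sample. In cDC2s it was at 10.3, 11.7 and 11.4 CPM with WT, 8.82, 8.19 and 9.31 CPM with BimS and 10.0 and 9.61 CPM with RIPK3 medium, a fold change of -0.35 (SE 0.12, adjusted p = 0.107, with the block 0.0106) and -0.19 (SE 0.14, adjusted p = 0.528).

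The counts of Bcl2a1b are uncertain, because the mouse genome holds near-identical copies. Over 516 coding bases it differs from Bcl2a1a at 11 and from Bcl2a1d at 6. Of the windows of 54 bases, the length of a read, in its transcript, 76.8% are found in another gene. The first 40 coding bases show where the copies can be told apart, with capitals at the 5 positions that differ among them (Bcl2a1a chr9:88839104-88839143, plus strand, Bcl2a1b chr9:89081413-89081452, plus strand, Bcl2a1d chr9:88613733-88613772, minus strand, all in exon 1).
Bcl2a1a: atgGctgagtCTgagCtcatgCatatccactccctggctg
Bcl2a1b: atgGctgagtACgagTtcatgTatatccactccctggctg
Bcl2a1d: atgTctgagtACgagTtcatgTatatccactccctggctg
The other copies were counted far more often than Bcl2a1b. Bcl2a1a was at 136, 132 and 124 CPM in cDC1s with WT medium and between 93.8 and 114 CPM with the other media, and Bcl2a1d at 281, 264 and 276 CPM against 207 to 245 CPM. Both copies fell in cDC1s, Bcl2a1a by 0.34 with BimS (SE 0.060, adjusted p = 7.55e-05) and by 0.29 with RIPK3 medium (SE 0.060, adjusted p = 0.000475). Bcl2a1d fell by 0.29 (SE 0.058, adjusted p = 0.000552) and 0.30 (SE 0.058, adjusted p = 0.000263). The sum of the 3 copies does not depend on how the reads kept for them were shared out among them. It leaves out Bcl2a1c and Gm29094, which share windows with them. Whether reads that fit several copies were kept is not given in the sources used here. The sum was 413 ± 12.8 CPM (SD, n = 3) in cDC1s with WT medium, 331 ± 28.6 CPM (SD, n = 3) for BimS medium, and 333 ± 24.5 CPM (SD, n = 3) for RIPK3 medium. The WT samples, at 403 CPM or more, lay above all others, which reached 362 CPM. In cDC2s the sum was 453 ± 50.1 CPM (SD, n = 3), 395 ± 28.6 CPM (SD, n = 3) and 367 ± 13.9 CPM (SD, n = 2). There Bcl2a1d fell by 0.36 with RIPK3 medium (SE 0.10, adjusted p = 0.0367).

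**Figure D2:**
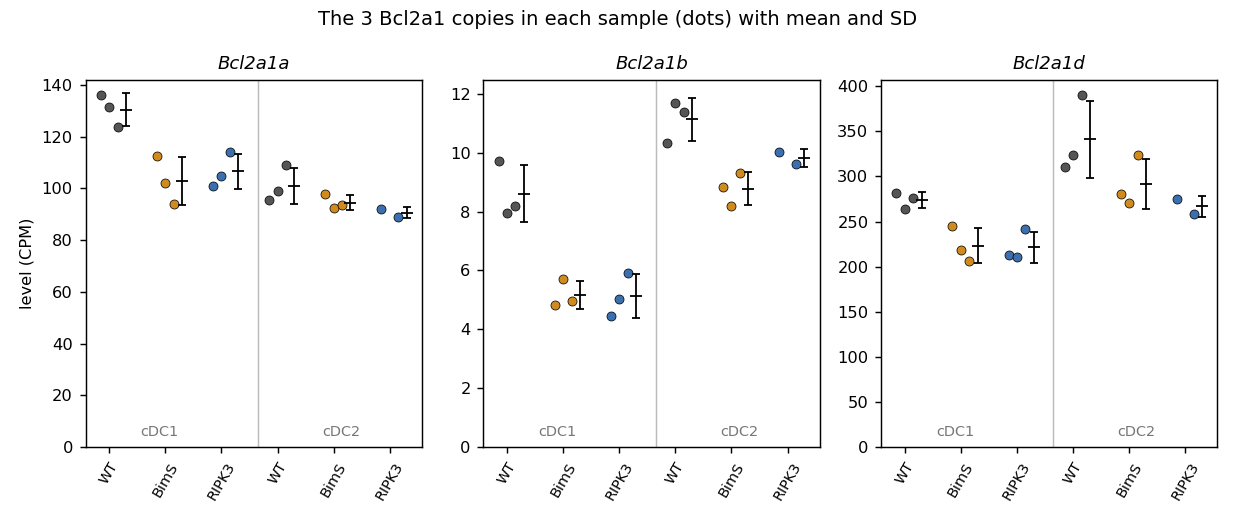
Level in CPM of the 3 Bcl2a1 copies in each of the 17 samples (dots, colored by medium), with the mean and SD of each group beside them. In cDC1s the WT samples are the highest for each copy, and Bcl2a1b lies at 11.7 CPM or less where Bcl2a1d reaches 390 CPM.

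Bcl2l1 (ENSMUSG00000007659, chr2:152622582-152673655, minus strand) encodes BCL-XL, which guards against both BAX and BAK. In cDC1s it was at 77.6, 70.4 and 71.9 CPM with WT medium, 69.5, 56.1 and 61.6 CPM with BimS medium and 66.7, 64.4 and 67.3 CPM with RIPK3 medium. The WT samples were the highest, with BimS replicate 1 close below them. Bcl2l1 fell by 0.23 with BimS medium (SE 0.064, adjusted p = 0.00951), a call that is lost without WT replicate 1 (-0.19, adjusted p = 0.0929) or without BimS replicate 2 (-0.17, adjusted p = 0.116), and in limma on unnormalised log2 counts (-0.27, adjusted p = 0.11). It shares 476 bases of exon with Gm74855 on the opposite strand. With RIPK3 medium the fold change was -0.15 (SE 0.064, adjusted p = 0.115, with the block 0.0256). In cDC2s it was at 45.9, 48.9 and 46.1 CPM with WT, 46.8, 43.0 and 34.2 CPM with BimS and 41.2 and 38.9 CPM with RIPK3 medium. The fold change was -0.19 (SE 0.10, adjusted p = 0.379) and -0.24 (SE 0.12, adjusted p = 0.287), and with the block -0.19 (adjusted p = 0.00907) and -0.31 (adjusted p = 0.000157).

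Bcl2 (ENSMUSG00000057329, chr1:106465908-106642060, minus strand), the founding survival gene of the family, was the scarcest of the 10 in cDC1s. It stood there at 1.74, 2.29 and 1.89 CPM with WT medium, at 2.24, 1.68 and 2.11 CPM with BimS medium and at 2.83, 3.61 and 2.99 CPM with RIPK3 medium. The RIPK3 samples lay above all other cDC1 samples, and WT and BimS samples overlapped. Bcl2 rose by 0.68 on the log2 scale with RIPK3 medium against WT (SE 0.20, adjusted p = 0.0161), which is 59.8% more, on 52 to 72 reads per sample against 35 to 45. The call is lost without WT replicate 1 (0.60, adjusted p = 0.0834), WT replicate 3 (0.64, adjusted p = 0.0645) or RIPK3 replicate 2 (0.56, adjusted p = 0.119), and in limma on unnormalised log2 counts (0.54, adjusted p = 0.11). With BimS medium the difference was 0.026 (SE 0.22, adjusted p = 0.975). Up to 497 bases of exon are shared with D630008O14Rik on the opposite strand. In cDC2s it was at 7.95, 9.98 and 8.74 CPM with WT, 7.12, 7.32 and 7.64 CPM with BimS and 7.44 and 11.5 CPM with RIPK3 medium, the last pair enclosing every WT sample. The fold changes were -0.27 (SE 0.16, adjusted p = 0.399) and 0.093 (SE 0.17, adjusted p = 0.864).

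Of the effectors, Bax (ENSMUSG00000003873, chr7:45111015-45116325, minus strand) rose in all 4 comparisons with WT medium. In cDC1s it went from 32.2, 35.1 and 35.2 CPM with WT medium to 47.7, 41.3 and 46.3 CPM with BimS medium and 43.1, 41.5 and 44.9 CPM with RIPK3 medium. The groups with medium of dying cells lay wholly above WT. The rise was 0.40 with BimS (SE 0.067, adjusted p = 2.72e-05) and 0.34 with RIPK3 medium (SE 0.067, adjusted p = 0.000284), and the latter call is lost in limma on unnormalised log2 counts (0.22, adjusted p = 0.208). In cDC2s it went from 56.3, 53.98 and 71.3 CPM to 76.5, 73.4 and 81.0 CPM with BimS and 78.9 and 77.5 CPM with RIPK3 medium. WT did not overlap with the others, although WT replicate 3 came close to BimS replicate 2. The rise was 0.34 (SE 0.097, adjusted p = 0.0348) and 0.36 (SE 0.11, adjusted p = 0.0481), and with the block 0.35 (adjusted p = 7.57e-10) and 0.44 (adjusted p = 3.42e-11). Without the block these calls in cDC2s are fragile. Of the 8 fits that leave out 1 cDC2 sample, 7 lose the call in each comparison, with adjusted p up to 0.231 for BimS and 0.266 for RIPK3 medium, and only the fit without WT replicate 3 keeps it. Limma on unnormalised log2 counts also loses both (0.28, adjusted p = 0.281, and 0.20, adjusted p = 0.504). Of the 54-base windows of the Bax transcript, 15.2% are shared with the overlapping gene model Gm45808.

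Bak1 (ENSMUSG00000057789, chr17:27238784-27247983, minus strand), the other effector, was called in none of the 4 comparisons. It shares up to 257 bases of exon with Ggnbp1 on the opposite strand. In cDC1s it ranged from 103 to 116 CPM with WT, from 105.5 to 111.9 CPM with BimS and from 98.9 to 110 CPM with RIPK3 medium, and all groups overlapped. The fold change was -0.024 (SE 0.055, adjusted p = 0.872) and -0.064 (SE 0.055, adjusted p = 0.534). In cDC2s it ranged from 78.05 to 94.3, from 69.5 to 82.1 and from 75.5 to 79.3 CPM, a fold change of -0.14 (SE 0.092, adjusted p = 0.464, with the block 0.0284) and -0.15 (SE 0.10, adjusted p = 0.504).

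The BH3-only gene Bbc3 (ENSMUSG00000002083, chr7:16042318-16052130, plus strand), which encodes PUMA, binder of every pro-survival member and a target of p53 and of FOXO factors, fell in all 4 comparisons. In cDC1s it went from 68.0, 67.5 and 72.4 CPM with WT medium to 43.4, 47.5 and 47.7 CPM with BimS medium and 45.5, 49.0 and 57.7 CPM with RIPK3 medium. No sample with medium of dying cells reached a WT sample. The fall was 0.58 with BimS (SE 0.068, adjusted p = 5.43e-08) and 0.45 with RIPK3 medium (SE 0.068, adjusted p = 4.62e-06), which is 33.3% and 26.9% less. In cDC2s it went from 33.2, 36.7 and 43.9 CPM to 24.2, 22.7 and 24.5 CPM with BimS and 28.7 and 26.96 CPM with RIPK3 medium, again with no overlap with WT. The fall was 0.67 (SE 0.11, adjusted p = 0.000243) and 0.46 (SE 0.12, adjusted p = 0.0198). The latter is lost without WT replicate 2 (adjusted p = 0.058), RIPK3 replicate 1 (0.118) or RIPK3 replicate 2 (0.234), and is called with the block (-0.38, adjusted p = 3.37e-05).

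Pmaip1 (ENSMUSG00000024521) encodes NOXA, which binds MCL-1 and A1 and promotes loss of MCL-1. In cDC1s it stood at 1230, 1150 and 1147 CPM with WT, at 925, 914 and 899.7 CPM with BimS and at 1139, 1067 and 974 CPM with RIPK3 medium. The 3 groups did not overlap, and RIPK3 lay between the others. Pmaip1 fell by 0.36 with BimS (SE 0.049, adjusted p = 5.04e-07) and by 0.15 with RIPK3 medium (SE 0.049, adjusted p = 0.0291). The latter is lost without WT replicate 1 (-0.12, adjusted p = 0.198), without RIPK3 replicate 2 (-0.16, adjusted p = 0.0523) or 3 (-0.096, adjusted p = 0.123) and in DESeq2 (-0.14, adjusted p = 0.0614). In cDC2s it stood at 735, 570 and 523 CPM with WT, at 699, 579 and 577 CPM with BimS and at 707 and 546 CPM with RIPK3 medium. Replicate 1 was the highest with each of the media, and the groups overlapped (0.018, SE 0.14, adjusted p = 0.974, and 0.030, SE 0.15, adjusted p = 0.967).

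Bcl2l11 (ENSMUSG00000027381, chr2:127967958-128004476, plus strand), the gene of BIM, was the BH3-only gene with the most reads in cDC1s, between 18431 and 29673 per sample. Its levels were 1345, 1282 and 1333 CPM with WT, 1355, 1313 and 1371 CPM with BimS and 1185, 1098 and 1061 CPM with RIPK3 medium. The RIPK3 samples were the lowest, and WT and BimS samples overlapped. Bcl2l11 fell by 0.24 with RIPK3 medium (SE 0.046, adjusted p = 0.000111). With BimS medium the difference was 0.029 (SE 0.046, adjusted p = 0.803). In cDC2s it was at 259, 274 and 237 CPM with WT, 288, 301 and 278 CPM with BimS and 274 and 284 CPM with RIPK3 medium, where the BimS samples lay above WT (0.17, SE 0.080, adjusted p = 0.272, with the block 0.000457) and RIPK3 had 0.11 (SE 0.089, adjusted p = 0.584). The transgene of the TC-1-iBimS clone is the coding sequence of mouse BimS, so reads from it would be counted here, and their share was not tested. Ripk3, whose mouse coding sequence the other clone carries fused to an oligomerizing domain, was at 22.4 to 26.6 CPM in cDC1s with WT medium, 25.1 to 28.3 CPM with BimS and 27.1 to 32.9 CPM with RIPK3 medium, and in cDC2s at 22.8 to 31.2, 29.9 to 43.8 and 35.6 to 44.4 CPM. It rose with RIPK3 medium by 0.28 in cDC1s (SE 0.082, adjusted p = 0.0146) and by 0.57 in cDC2s (SE 0.16, adjusted p = 0.0452), and with BimS medium the fold change was 0.15 (adjusted p = 0.268) and 0.44 (adjusted p = 0.1).

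Bid (ENSMUSG00000004446, chr6:120862525-120894171, minus strand), which caspase-8 cleaves to link death receptors with mitochondria, was at 41.8, 39.8 and 43.9 CPM in cDC1s with WT, 46.1, 42.2 and 42.5 CPM with BimS and 36.2, 34.4 and 38.4 CPM with RIPK3 medium. The RIPK3 samples were the lowest and the other groups overlapped. Bid fell by 0.21 with RIPK3 medium (SE 0.066, adjusted p = 0.027). The call is lost without WT replicate 1 (adjusted p = 0.074), WT replicate 3 (0.166), RIPK3 replicate 1 (0.052) or RIPK3 replicate 2 (0.146). With BimS medium the difference was 0.058 (SE 0.065, adjusted p = 0.691). In cDC2s only 71 to 148 reads per sample were counted, and the fold changes were -0.17 (SE 0.19, adjusted p = 0.716) and -0.38 (SE 0.21, adjusted p = 0.371). Bid shares up to 1353 bases of exon with Bcl2l13 on the opposite strand, and for it, as for Bcl2, Bcl2l1 and Bak1, whether the counting used the strand is not given in the sources used here.

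**Figure D3:**
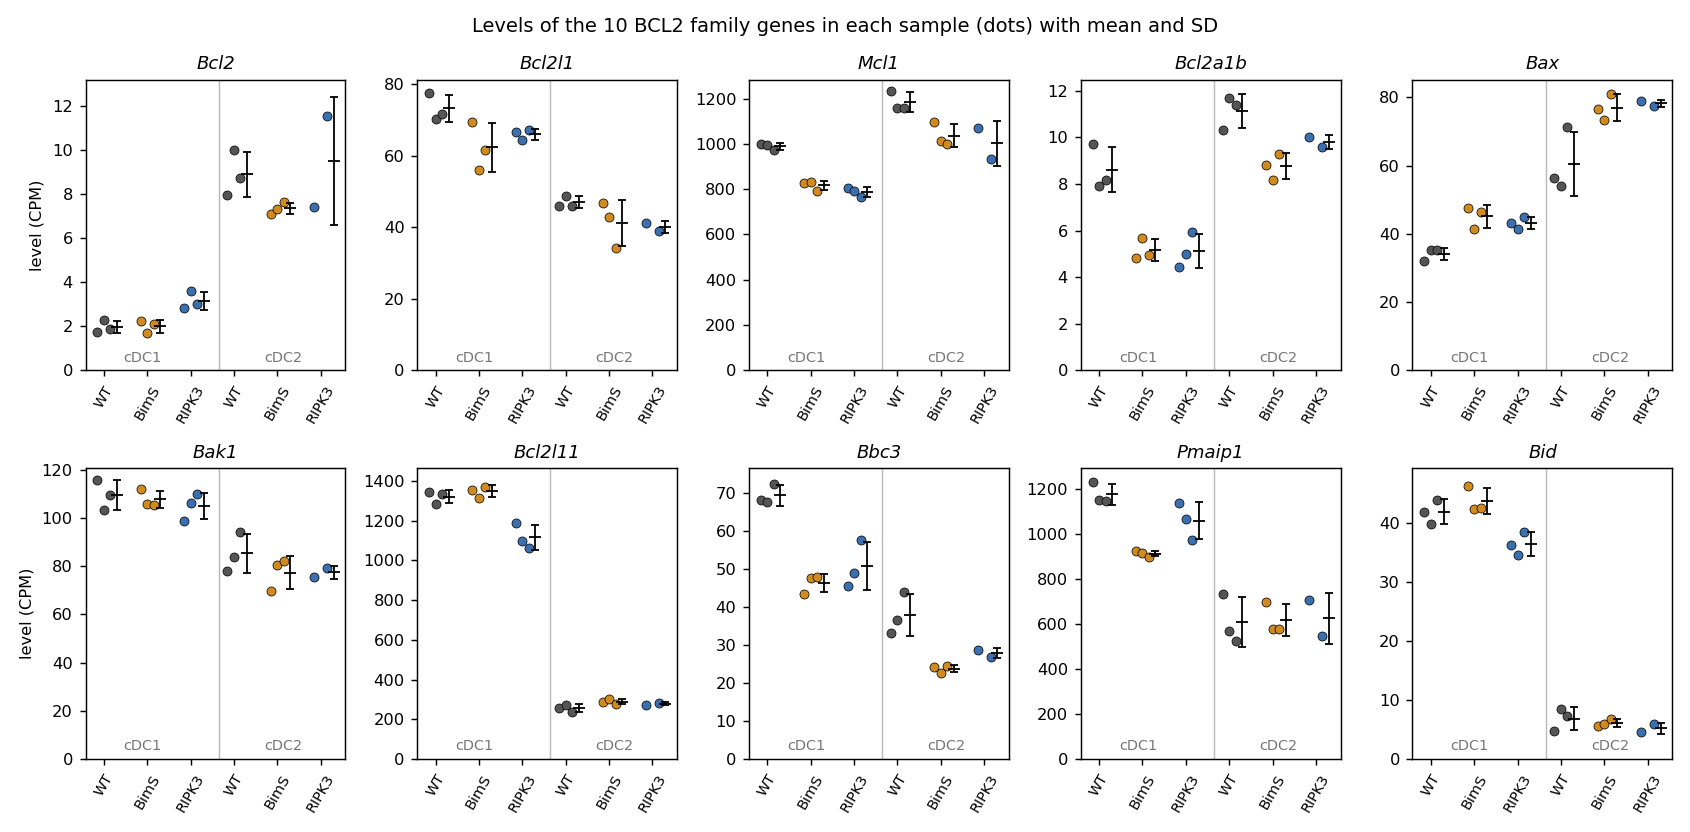
Level in CPM of the 10 genes in each of the 17 samples (dots, colored by medium), in cDC1s (left of each panel) and cDC2s (right), with the mean and SD of each group beside them. Bcl2l11 and Bid are higher in cDC1s and Bcl2 in cDC2s with each of the media, and Bbc3 is highest with WT medium in each cell type.

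RIPK3 medium was next compared with BimS medium, which asks whether necroptotic and apoptotic debris differ. In cDC1s Bcl2l11 and Bid were lower and Pmaip1 was higher with RIPK3 medium, 3 of 10 genes beside 4.15% of all genes (1.94% higher, 2.21% lower, and 9.01% of genes with a mean log2 CPM of 3 or more). The fold change was -0.27 for Bcl2l11 (SE 0.046, adjusted p = 0.000185), -0.26 for Bid (SE 0.066, adjusted p = 0.0138) and 0.21 for Pmaip1 (SE 0.049, adjusted p = 0.00599, in limma on unnormalised log2 counts 0.13 and 0.648). Samples of the groups did not overlap for these 3 genes, nor for Bcl2, which was not called. How often that held over all genes was not counted. The call of Bid is lost without BimS replicate 1 (-0.22, adjusted p = 0.0938) or RIPK3 replicate 2 (-0.22, adjusted p = 0.104), and in limma (-0.35, adjusted p = 0.0771). Bcl2 was higher by 0.65 (SE 0.20, adjusted p = 0.0625), and with the block by 0.65 (adjusted p = 0.0243). Mcl1, Bcl2a1b, Bax and Bak1 had differences of -0.055 (SE 0.044), -0.018 (SE 0.15), -0.063 (SE 0.066) and -0.039 (SE 0.055), none called. In cDC2s none of the 10 was called by edgeR, beside 0.379% of all genes, and none had an unadjusted p under 0.05. DESeq2 and limma also called 0, and the block called 1 of 10, beside 14.3% of all genes, which was Bbc3 (0.29, adjusted p = 0.00737).

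The cell types were then compared with each other. Over all media, Bid, Bcl2l11, Bbc3, Pmaip1, Bcl2l1 and Bak1 were higher in cDC1s, and Bcl2, Bax, Bcl2a1b and Mcl1 in cDC2s. All 4 BH3-only genes were thus on the cDC1 side. All 10 were called, 6 higher and 4 lower in cDC1s, beside 59.8% of all genes (30.4% higher, 29.4% lower) and 80.7% of genes with a mean log2 CPM of 3 or more, which leaves the count near the background. Bid was higher in cDC1s by 2.74 on the log2 scale (SE 0.077, adjusted p = 9.16e-24), which is 6.67-fold, and Bcl2l11 by 2.21 (SE 0.048, adjusted p = 1.6e-26), which is 4.62-fold. Bbc3 was higher by 0.90 (SE 0.055, adjusted p = 3.27e-15), Pmaip1 by 0.76 (SE 0.080, adjusted p = 1.9e-07), Bcl2l1 by 0.65 (SE 0.053, adjusted p = 4.02e-12) and Bak1 by 0.42 (SE 0.046, adjusted p = 1.47e-09). Bcl2 was lower by 1.88 (SE 0.11, adjusted p = 1.22e-15), to 0.271 of its level in cDC2s. Bax was lower in cDC1s by 0.81 (SE 0.050, adjusted p = 4.85e-15), Bcl2a1b by 0.65 (SE 0.086, adjusted p = 8.13e-08) and Mcl1 by 0.32 (SE 0.037, adjusted p = 7.07e-09). For A1 this rests on Bcl2a1b alone. With WT medium Bcl2a1a had 2732, 2587 and 2751 reads in cDC1s and 1858, 1725 and 2017 in cDC2s. Bcl2a1d had 5650, 5185 and 6136 against 6040, 5639 and 7226. The sum of the 3 copies with WT medium was 413 ± 12.8 CPM (SD, n = 3) in cDC1s and 453 ± 50.1 CPM (SD, n = 3) in cDC2s. Limma on unnormalised log2 counts, which moved the median of all genes by 0.17, gave Mcl1 -0.12 (adjusted p = 0.07).

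Levels between genes were compared per exon length, in CPM per kb. With WT medium in cDC1s the order was Pmaip1 (430), Mcl1 (283), Bcl2l11 (131), Bak1 (45.5), Bax (18.4), Bbc3 (14.5), Bcl2l1 (14.3), Bcl2a1b (10.4), Bid (4.27) and Bcl2 (0.214). In this order Bbc3 and Bcl2l1 did not differ beyond their SD. With WT medium in cDC2s Mcl1 led (339), followed by Pmaip1 (223), Bak1 (35.4), Bax (32.6), Bcl2l11 (25.4), Bcl2a1b (13.5), Bcl2l1 (9.15), Bbc3 (7.92), Bcl2 (0.965) and Bid (0.701). There Bak1 and Bax were within their SD of each other. The exon length is the union of all annotated exons, which is 10112 bases for Bcl2l11 against 5046 in its canonical transcript and 9796 for Bid against 2202. With the length of the canonical transcript, an alternative chosen after the values were seen, the order turns in places. In cDC1s Bid (19.0) then lies above Bcl2a1b (10.4). In cDC2s Bax (62.0) and Bcl2l11 (50.9) then lie above Bak1 (35.7), and Bid (3.12) above Bcl2 (1.23). Bcl2l1 (14.4, SD 0.51) and Bbc3 (14.1, SD 2.04) then stand above Bcl2a1b (13.5, SD 0.88), with SDs that overlap. Mcl1 and Pmaip1 lead the 10 genes in both cell types with either length. A1 stands in this order by Bcl2a1b alone. The 3 A1 copies, with 819 to 863 bases of exon each, summed to 413 CPM in cDC1s and 453 CPM in cDC2s with WT medium. The place of A1 beside Mcl1 and Pmaip1 is therefore not given by this order.

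**Figure D4:**
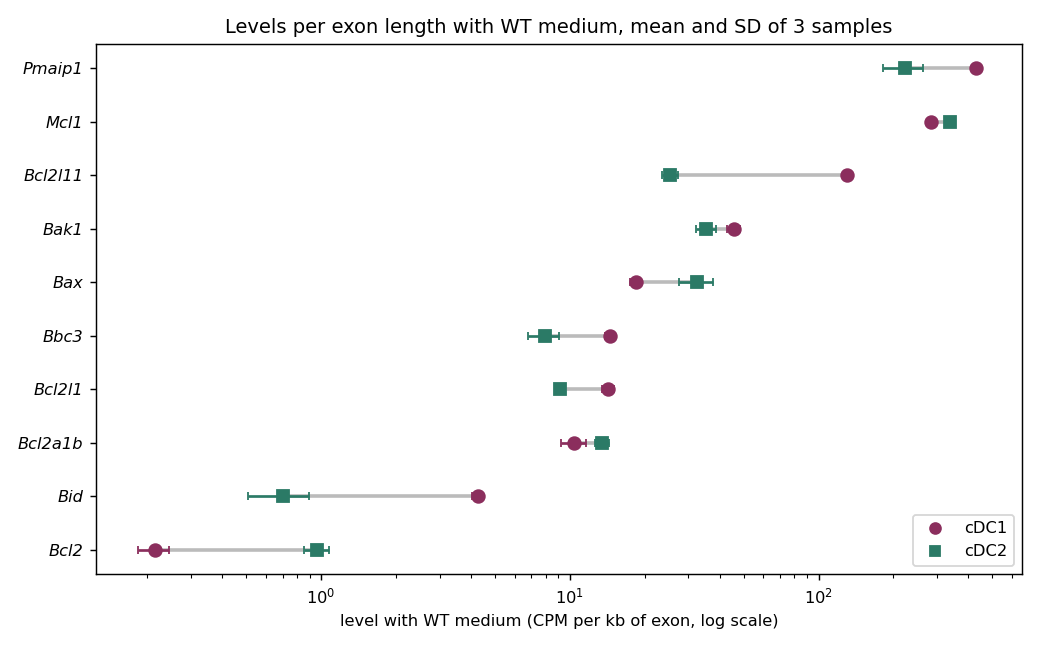
Level per kb of exon with WT medium on a log axis, in cDC1s (circles) and cDC2s (squares), as mean and SD of 3 samples, ordered by the level in cDC1s. Bcl2l11 moves from 131 in cDC1s to 25.4 in cDC2s, while Mcl1 is at 283 and 339.

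Whether the response differed between cDC1s and cDC2s was tested by the interaction in a fit of all 17 samples. For RIPK3 medium against WT, Bcl2l11 was the only one of the 10 that passed (1 of 10, beside 1.14% of all genes). It went down in cDC1s (-0.24) and had 0.11 in cDC2s, a difference of -0.36 (SE 0.093, adjusted p = 0.0474, with the block 0.00693). The call is lost in limma (-0.30, adjusted p = 0.825) and in 11 of 17 fits that leave out 1 sample, with adjusted p up to 0.278. Of the others, Bcl2a1b (-0.57, SE 0.19, adjusted p = 0.196) and Bcl2 (0.57, SE 0.26, adjusted p = 0.513) had an unadjusted p under 0.05. For BimS medium against WT none passed, beside 0.870% of all genes, and 2 had an unadjusted p under 0.05. The 2 were Pmaip1 (-0.39, SE 0.16, adjusted p = 0.514, with the block 0.0136, beside 2.32% of all genes) and Bcl2a1b (-0.39, SE 0.18, adjusted p = 0.533). Without WT replicate 1 of the cDC2s, Pmaip1 was called (-0.55, adjusted p = 0.039). For RIPK3 against BimS medium none passed, beside 0.0314% of all genes, and 1, Bcl2l11 (-0.22, SE 0.093, adjusted p = 0.902), had an unadjusted p under 0.05. Limma called 0 in all 3 tests and DESeq2 0 in the last 2. For Bax and Bbc3, called in both cell types, the interactions with BimS medium were 0.053 (SE 0.12) and 0.089 (SE 0.13), and with RIPK3 medium -0.034 (SE 0.13) and -0.0051 (SE 0.14).

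Promoters are shown for the genes that hold a motif of NF-kB or of forkhead factors. Of the 5 genes that fell with BimS medium in cDC1s, Bbc3, Mcl1 and Bcl2l1 hold the former, Bcl2a1b does not, and no window of Pmaip1 was used here. RefSeq promoter windows, from 250 bases before to 50 after a transcript start, were given for 9 of the 10 genes in a GRCm38.p6 table and were placed on GRCm39 by exact match. The motifs were picked after the expression values had been seen. An NF-kB motif (GGG, any 2 bases, then TTTCC) was found on either strand in windows of Bbc3, Mcl1 and Bcl2l1, 3 of 9 genes, and in 1.63% of all 32851 windows. The share of windows is not a share of genes, since a gene can have several. The stretches around it, each read along the strand of the gene, have the motif in capitals, here as its reverse complement, and lie at chr7:16043347-16043406 (Bbc3, plus strand), chr3:95565979-95566038 (Mcl1, plus strand) and chr2:152672821-152672880 (Bcl2l1, minus strand).
Bbc3: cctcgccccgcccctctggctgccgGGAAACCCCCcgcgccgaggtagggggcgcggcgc
Mcl1: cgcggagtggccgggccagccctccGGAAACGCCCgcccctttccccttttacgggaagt
Bcl2l1: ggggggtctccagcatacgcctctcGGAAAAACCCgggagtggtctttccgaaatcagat
GTAAACA, a motif of forkhead factors such as FOXO1, was found in windows of Bbc3 and Bcl2l11 and in 3.65% of all windows. That of Bcl2l11, which fell in cDC1s with RIPK3 medium, lies at chr2:127967708-127967762 on the plus strand.
Bcl2l11: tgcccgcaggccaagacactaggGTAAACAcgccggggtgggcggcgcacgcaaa
CACGTG, the E-box, was found in windows of Bax and Bbc3 and in 7.15% of all windows. TTCNNNGAA, a STAT motif, and TGACGTCA, a cAMP response element, were found in no window of the 9 genes, against 8.3% and 1.79% of all windows. A match is a spelling in the sequence and no evidence of binding.

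Other members of the family went down or did not pass the test in the comparisons with WT medium. Of 13 further genes 10 were tested, and 4 fell in cDC1s with BimS and 4 with RIPK3 medium, none rose, and in cDC2s 0 were called with BimS (2 with an unadjusted p under 0.05) and 1 fell with RIPK3 medium (with the block 2 and 2 of 10 were called). The counts of this and the next 3 lists stand beside shares of all genes with a mean log2 CPM of 3 or more of 25.8% and 31.7% in cDC1s and of 13.2% and 13.6% in cDC2s, and beside 21.3% and 21.4% of all genes with the block in cDC2s. Besides Bcl2a1a and Bcl2a1d, Bcl2l14 moved most. It went from 125, 121 and 119 CPM in cDC1s with WT medium to 77.5, 65.9 and 70.8 CPM with BimS and 63.7, 64.2 and 70.6 CPM with RIPK3 medium. It fell by 0.77 (SE 0.058, adjusted p = 8.68e-13) and 0.88 (SE 0.059, adjusted p = 2.24e-14), more than any of the 10 genes, and was at or under 6.77 CPM in cDC2s. The median log2 fold change of the tested genes was -0.21 with BimS and -0.15 with RIPK3 medium in cDC1s, and -0.082 and -0.14 in cDC2s.

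Of 16 genes of the steps below the mitochondria and their inhibitors, 3 rose and 3 fell in cDC1s with BimS medium and 3 rose and 4 fell with RIPK3 medium. In cDC2s 1 rose and 1 fell with each of the media, and the one that fell was Casp9 (with the block 6 and 9 of 16 were called). Casp9, which starts the caspase cascade on APAF1, fell by 0.24 (SE 0.084, adjusted p = 0.0491) and 0.43 (SE 0.085, adjusted p = 0.000241) in cDC1s and by 0.47 (SE 0.14, adjusted p = 0.0433) and 0.57 (SE 0.16, adjusted p = 0.0324) in cDC2s. Htra2, a mitochondrial protease that counters the inhibitor XIAP, rose in cDC1s by 0.47 (SE 0.081, adjusted p = 4.3e-05) and 0.55 (SE 0.081, adjusted p = 2.57e-06).

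Because Bbc3, Pmaip1 and Bax are known targets of p53, 16 further genes of p53 and its targets were read, of which 15 were tested in cDC1s. With BimS medium 3 rose and 2 fell, and with RIPK3 medium 5 rose and 2 fell, while in cDC2s 1 rose and 3 fell with BimS and 2 rose with RIPK3 medium (with the block 10 and 8 of 16 were called). Their median log2 fold change was 0.0056 and 0.11 in cDC1s and -0.20 and -0.14 in cDC2s. Trp53inp1, which promotes p53 activity and autophagy, rose in all 4 comparisons, by 0.90 (SE 0.060, adjusted p = 3.01e-14) and 0.95 (SE 0.060, adjusted p = 5.34e-15) in cDC1s and by 0.76 (SE 0.11, adjusted p = 0.000275) and 0.64 (SE 0.12, adjusted p = 0.00278) in cDC2s. Tnfrsf10b, the TRAIL receptor, was at 3.94, 2.696 and 2.87 CPM in cDC1s with WT medium and rose by 0.70 with BimS (SE 0.18, adjusted p = 0.00468) and by 1.04 with RIPK3 medium (SE 0.17, adjusted p = 2.02e-05), and its response to BimS medium differed between the cell types (1.39, SE 0.31, adjusted p = 0.0196). Phlda3, an inhibitor of AKT, fell by 0.76 in cDC1s with RIPK3 medium (SE 0.25, adjusted p = 0.0326), at 0.853 to 1.42 CPM.

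Of 12 genes that control BIM, MCL-1 or BCL-2, 2 rose and 3 fell in cDC1s with BimS medium and 2 rose and 2 fell with RIPK3 medium. In cDC2s 1 rose and 1 fell with BimS and 2 rose with RIPK3 medium (with the block 10 and 8 of 12 were called). Foxo1, a forkhead factor known to switch on Bcl2l11 and Bbc3, went from between 39.4 and 40.2 CPM in cDC1s with WT medium to between 57.8 and 60.2 CPM with BimS and between 59.7 and 69.1 CPM with RIPK3 medium. It rose by 0.56 (SE 0.062, adjusted p = 8.69e-09) and 0.72 (SE 0.062, adjusted p = 1.62e-11) in the cells in which Bbc3 fell. The interaction for RIPK3 medium was 0.47 (SE 0.11, adjusted p = 0.0287). Trib1, an adaptor of the COP1 ubiquitin ligase, rose in cDC2s, by 0.38 with BimS (SE 0.11, adjusted p = 0.033) and by 0.57 with RIPK3 medium (SE 0.12, adjusted p = 0.00348). Ddit3, the stress factor CHOP, fell with BimS medium by 0.20 in cDC1s (SE 0.066, adjusted p = 0.0404) and by 0.37 in cDC2s (SE 0.11, adjusted p = 0.0378), with 0.048 and 0.10 for RIPK3 medium (adjusted p = 0.728 and 0.726).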

How the data were processed

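The members and the gene lists were chosen with earlier results of these data known. Reads were trimmed by the authors with SeqPurge, aligned with STAR 2.7.10a to GRCm39 with Ensembl models and counted per gene with gensum. The deposited counts were used as they stand, without normalization, and the deposited normalized table was not used here. Of 31239 lines, 148 carried no gene identifier (0.0258% to 0.0366% of counts) and were left out, and 30854 of 31091 identifiers were matched to GENCODE M39 for symbols.

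Tests were run with edgeR 4.0.16 in R 4.3.3 (robust quasi-likelihood, TMM), on genes counted in 50% or more of the samples fitted, with Benjamini-Hochberg adjustment over all genes and a threshold of 0.05. cDC1s (9 samples) and cDC2s (8) were fitted separately. A fit of all 17 gave the contrast of the cell types, adjusted for medium, and the interactions. CPM used TMM factors over all 17 samples. Each adjusted p comes from edgeR where no other tool stands beside it. The SE is derived from its test, as the absolute log2 fold change over the square root of the F statistic. Alternatives were DESeq2 1.42.0, RLE size factors, filterByExpr, no filter, limma 3.58.1 on log2(count + 1) as in the study, the replicate block, and leaving out each sample.

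All members were named, and of each further list at most the 3 called genes with the largest change against WT medium. Results of 2 genes of these lists are not reported here. Where nothing shows that replicates came from separate pools of mice, p-values measure the spread between these samples. After removal of group means, same-numbered samples of a cell type correlated above 0.1 in 16 of 16 pairs (median 0.355), against 4 of 32 with different numbers. Across cell types this held in 19 of 24 same-numbered pairs (median 0.210), against 5 of 48 with different numbers. The numbers were therefore taken to pair samples in the block. The main fits hold no block and treat samples as independent, also cDC1s and cDC2s of the same number. On simulated data with 200 genes changed by 1 on the log2 scale, 200 were recovered for BimS against WT in either cell type. For cDC1s against cDC2s 199 were recovered and for the BimS interaction 191. Of the calls 8.26% (cDC1s), 9.91% (cDC2s), 5.69% and 4.98% were false, and all but the last of these shares lay above the adjusted p threshold. Against WT medium the 10 genes changed by 0.75 at most (Bcl2a1b in cDC1s with RIPK3 medium). Changes under 1 were not simulated, so the recovery does not show how many changes of that size would be found.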

Additional observations from a re-analysis of the deposited data

Results flagged for a closer look

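The response of Bcl2l11 to RIPK3 medium differed between the cell types by the interaction test (-0.36 on the log2 scale, SE 0.093, adjusted p = 0.0474 by edgeR). Every RIPK3 sample of the cDC1s lay under every WT sample, at 1061 to 1185 CPM against 1282 to 1345 CPM. In cDC2s the 2 RIPK3 samples lay at 273.5 and 284 CPM, against 237 to 273.5 CPM with WT medium. The call is lost in 11 of the 17 fits that leave out 1 sample, with adjusted p up to 0.278 without RIPK3 replicate 2 of the cDC2s, and the value stayed between -0.40 and -0.33 in the fits that lost it. The difference in level between the cell types, 2.21 on the log2 scale, stands beside this result, and its part in it was not tested.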

How the results depend on the processing

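DESeq2 kept 99 of the 100 fold changes on their side of the threshold, RLE size factors, filterByExpr and no filter kept 100 each, limma on unnormalised log2 counts 90 and the replicate block 89. No fold change called in either fit changed sign. Among the others 11 changed sign under limma, 4 under the replicate block, 2 with no filter and 1 each under DESeq2, RLE size factors and filterByExpr. The replicate block, tested because same-numbered samples paired, called 7 genes for cDC2 BimS against WT and 4 for cDC2 RIPK3 against WT, and 1 each for cDC2 RIPK3 against BimS and for the BimS interaction. Its other changes were Bcl2l1 in cDC1s with RIPK3 medium and Bcl2 for RIPK3 against BimS in cDC1s, and it changed no other call. Limma called 1 gene for cDC1 RIPK3 against BimS, 1 for cDC2 BimS against WT and 0 for the RIPK3 interaction. That setting has no scaling for depth, and moved the median of all genes by -0.12 for cDC1 RIPK3 against WT and by -0.15 for cDC2 RIPK3 against WT. Under it Bax lost its call with RIPK3 medium in cDC1s (0.22, adjusted p = 0.208), and for cDC2 RIPK3 against WT it called Mcl1 in place of Bax.

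Leaving out 1 sample at a time gave 5 to 6 genes for cDC1 BimS against WT, 5 to 8 for cDC1 RIPK3 against WT, 1 to 2 for cDC2 BimS against WT, 0 to 3 for cDC2 RIPK3 against WT, 0 to 1 for the BimS interaction and 0 to 1 for the RIPK3 interaction. The lowest, 5 for cDC1 RIPK3 against WT, came without WT replicate 1 or RIPK3 replicate 2. Where cDC2 RIPK3 was left with 1 sample, that sample was assumed to vary like the other groups. The cDC2s with RIPK3 medium had 2 samples, and Bcl2 in cDC1s and Bid in cDC2s had under 150 reads per sample, as had Bcl2a1b in cDC1s with BimS or RIPK3 medium. The methods name no molecular identifiers for the reads.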
